A study of Mus musculus with 4 samples.

Results

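Effector or memory CD8 T cells were examined among the cells dissociated from mouse lung tumors. A cell was counted as one when at least 1 unique molecular identifier (UMI, 1 captured transcript molecule) of Cd3d, Cd3e or Cd3g and at least 1 of Cd8a or Cd8b1 was present, when at least 2 UMIs came from Ccl5, and when Cd4, Foxp3 and Cd79a were at 0 with at most 2 UMIs of C1qa, C1qb and C1qc together. Only cells with at least 200 detected genes and at most 13.4% of UMIs in mitochondrial genes were kept. These criteria gave 91 cells of 19892 kept cells, or 0.457% (95% interval 0.368 to 0.561%), out of 20351 cells in the matrix. They made up 11.4% (9.28 to 13.8%) of the 798 CD8 T cells, and the other 707 CD8 T cells, with at most 1 Ccl5 UMI, are called low-Ccl5 CD8 T cells here.

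Tumors were started with Lenti-Cre in Female mice, grew for 16 weeks, and were exposed to tamoxifen in 4 mg doses during the last 2 weeks. All 4 mice carried Lkb1XTR/XTR and Rosa26LSL-tdTomato, so that Cre traps the Lkb1 gene (Stk11) and switches on tdTomato in the cells it reaches. The 2 Restored mice also carried FLPo-ERT2, a tamoxifen-activated recombinase that removes the trap, and the 2 Non-Restored mice lacked it. All viable cells of the tumors were loaded, and the counts used here form 1 pooled matrix of 31055 features and 58624795 UMIs with no map from cells to mice. Restored and Non-Restored mice were therefore not compared, the matrix counts as 1 sample, and no p-value is given. Cell barcodes shared between libraries were not analysed here. All intervals are exact 95% intervals for counting error alone and leave out the spread between mice, and unequal contributions of the 4 mice to the classes cannot be told apart from differences between the classes.

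CD8 T cells recognise peptides on MHC class I through the T cell receptor and the CD8 co-receptor. Naive cells recirculate through lymph nodes with the help of homing receptors such as that encoded by Ccr7. After stimulation they acquire granzymes, which are serine proteases delivered into target cells through perforin pores, and store transcripts of the chemokine Ccl5, a trait that memory cells keep. The transcription factors T-bet and Eomes, of the T-box family, and Runx3, of the RUNX family, are known regulators of this cytotoxic program.

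Ccl5 lies on chromosome 11 (83525778 to 83530518, minus strand, mm10), Cd8a and Cd8b1 lie next to each other on chromosome 6 (71373427 to 71379173 and 71322788 to 71337494, plus strand), and Gzma and Gzmk share a granzyme cluster on chromosome 13 (113093825 to 113100981 and 113171608 to 113225908, minus strand). The stretches of 250 bases upstream of the RefSeq starts of Nkg7, Gzma, Gzmk and Gzmb (GRCm38.p6, printed 5′ to 3′ on the gene's strand) are shown because these 4 cytotoxic genes are among those followed in detail here. Capitals mark matches on either strand to GGTGTGA (reverse complement TCACACC), a T-box core motif, or to TGTGGT (reverse complement ACCACA), a RUNX core motif. No match of one motif overlapped a match of the other. RefSeq and GENCODE, the source of the gene spans above, differ in some starts. The Gzmk window lies inside the GENCODE span of Gzmk. The Nkg7 window runs past the GENCODE start of Nkg7 at 43437073, and its T-box match lies beyond that start.
Nkg7, chr7:43436888-43437137, plus strand: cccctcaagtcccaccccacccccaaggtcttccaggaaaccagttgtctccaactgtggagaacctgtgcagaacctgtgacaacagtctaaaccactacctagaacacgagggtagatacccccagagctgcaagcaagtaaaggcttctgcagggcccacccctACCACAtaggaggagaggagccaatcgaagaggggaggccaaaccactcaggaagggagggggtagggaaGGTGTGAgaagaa
Gzma, chr13:113100982-113101231, minus strand: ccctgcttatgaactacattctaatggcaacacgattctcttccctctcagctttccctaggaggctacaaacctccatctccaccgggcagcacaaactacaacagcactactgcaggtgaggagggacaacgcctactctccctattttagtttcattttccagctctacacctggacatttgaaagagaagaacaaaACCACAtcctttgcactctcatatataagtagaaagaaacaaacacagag
Gzmk, chr13:113180966-113181215, minus strand: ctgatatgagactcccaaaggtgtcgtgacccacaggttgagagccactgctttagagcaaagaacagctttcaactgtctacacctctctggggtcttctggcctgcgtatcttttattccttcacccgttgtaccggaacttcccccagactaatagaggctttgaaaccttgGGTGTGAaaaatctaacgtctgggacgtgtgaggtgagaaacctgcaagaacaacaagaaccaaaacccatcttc
Gzmb, chr14:56262335-56262584, minus strand: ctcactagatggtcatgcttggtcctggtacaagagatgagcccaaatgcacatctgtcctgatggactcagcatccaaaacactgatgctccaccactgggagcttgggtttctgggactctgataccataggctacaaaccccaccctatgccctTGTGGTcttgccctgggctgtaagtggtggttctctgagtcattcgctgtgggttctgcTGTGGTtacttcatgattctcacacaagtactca

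Upstream of the RefSeq starts, the T-box motif was found for Nkg7 and Gzmk and the RUNX motif for Nkg7, Gzma and Gzmb, with 2 matches for Gzmb. Among the other genes searched, Klrk1, Ly6c2 and Cxcr3 had a RUNX match and no T-box match. Fasl, Tbx21, Ifng and Slamf7 had neither motif. Over windows of the same length, the T-box motif was present for 894 of 27025 genes (3.31%) and the RUNX motif for 3832 (14.2%). These matches describe letters in the window and say nothing about binding. No entry was present for Ccl5.

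The 91 cells held 206545 UMIs, at a median depth of 1986 UMIs (777 genes), against 1887 UMIs (685 genes) in the low-Ccl5 CD8 T cells. NK cells served as a second comparison, being cytotoxic lymphocytes without a T cell receptor. They were taken as kept cells with no Cd3d, Cd3e or Cd3g UMI, at least 2 UMIs of Ncr1, Klrb1c and Klre1 together and the same limits on Cd79a and C1q, which gave 388 cells with a median of 1207 UMIs. B cells (1585 cells with at least 2 Cd79a UMIs and no Cd3d, Cd3e or Cd3g UMI) served as a background class that should lack T cell genes. Free RNA and UMIs of other cells in the same droplet were not told apart in it. Levels are given as CPM, a gene's UMIs summed over a class and divided by all UMIs of that class on the usual scale of this unit. Ribosomal protein genes took 35.2% of UMIs in effector or memory CD8 T cells, 40.4% in low-Ccl5 CD8 T cells and 24.3% in NK cells.

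Ccl5 chose the cells and is given as a description. It ranged from 2 to 90 UMIs per cell with a median of 16, and 54 of the 91 cells held more than 10. In the low-Ccl5 class 691 cells held none and 16 held 1. Just inside the threshold, the 9 cells with 2 Ccl5 UMIs had no UMI of Gzma, Gzmb, Gzmk or Klrk1, a summed cytotoxic level of 1271 CPM and a summed naive level of 2237 CPM. The 16 cells with 1 UMI, just outside, were at 1061 and 4048 CPM for the same lists and likewise had no Gzma, Gzmb or Gzmk.

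**Figure D1:**
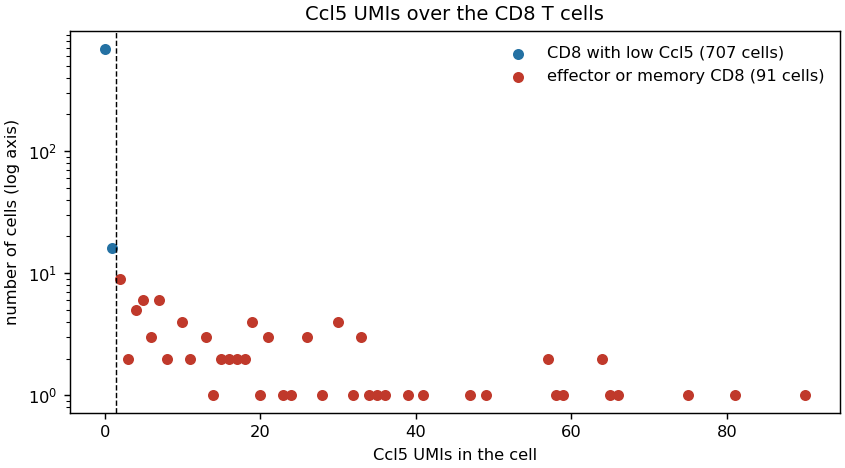
Number of CD8 T cells (log axis) at each number of Ccl5 UMIs per cell. The dashed line is the threshold between low-Ccl5 cells (0 or 1 UMI, 707 cells) and effector or memory cells (2 to 90 UMIs, 91 cells), which spread over a long range with a median of 16.

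T cell receptor constant genes, which the criteria did not use, were looked at first. Trac, Trbc1 or Trbc2, the constant regions of the alpha-beta T cell receptor, were detected in 75 of the 91 cells (82.4%), close to the 84.4% of low-Ccl5 CD8 T cells and above the 30.4% of NK cells and 1.39% of B cells. NK and B cells were chosen for having no Cd3 UMI and the CD8 T cells for at least 1, so their contrast was in part built in. These shares bear on T cell identity and not on the effector or memory label. Constant genes of the gamma-delta receptor were detected in 3 cells. Of the genes in the criteria, Cd8b1 was present in 79 cells and Cd8a in 39, and 38 cells entered on exactly 1 CD8 UMI. Summed markers of B cells, which the criterion on Cd79a bears on, and of stromal cells were at 0 UMIs, with 0 of 4 genes of either list seen.

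A few cells held many UMIs of other cell types. Macrophage markers summed to 376 UMIs, of which 325 came from 1 cell that held 181 of Chil3 and 133 of Lyz2. Another cell held 21 dendritic cell marker UMIs, all 16 UMIs of Fscn1, 22 of the 46 Ccr7 UMIs and 13 of the 19 Hspa1b UMIs. Genes that define NK cells (Ncr1, Klre1, Klrb1c, Klrb1f, Klra4, Klra7, Klra8 and Klra9) gave 34 UMIs, 28 of them in 4 cells. In the low-Ccl5 class, 23 cells carried 98.5% of 5274 neutrophil marker UMIs and 4 cells carried 92.5% of 2446 epithelial marker UMIs. Cells with at least 10 UMIs of a marker list of another cell type, or CD8 T cells with at least 2 UMIs of the NK genes, were left out in an alternative chosen after seeing the data, which left 83, 661 and 378 cells. It is called the screened set, and its value is given beside ratios that moved with it. Whether these were pairs of cells in 1 droplet was not tested by this, and Scrublet, a doublet caller, called none of the 91 cells.

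Cytotoxic genes were higher in effector or memory CD8 T cells than in low-Ccl5 CD8 T cells. Of 10 genes on the list, 9 reached 50 CPM in either class, and 7 of these were at least 2-fold higher and none at least 2-fold lower. Over all 2482 genes at that level, 219 (8.82%) were at least 2-fold higher and 125 (5.04%) at least 2-fold lower. The summed list was 4139.5 CPM (3867 to 4427) against 1352 CPM, a log2 ratio of 1.61 (1.50 to 1.73) beside a median of 0.21 over all genes. With ribosomal protein and mitochondrial UMIs left out of the totals, the median over the 2387 remaining genes moved by -0.14 and the list ratio was 1.48. The calls then split into 280 higher and 379 lower. For these calls the 50 CPM minimum was applied to the rescaled levels, so they cover more genes than those 2387.

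Gzma, encoding granzyme A, summed to 252 UMIs in 26 of the 91 cells, with 68 UMIs in the highest cell, and to 2 UMIs in the 707 low-Ccl5 cells. Its level was 1220.1 CPM (1074 to 1380) against 1.26 CPM (0.153 to 4.56), a log2 ratio of 9.92 (8.05 to 12.97). In B cells 88 UMIs were seen, in 8 cells. After thinning every cell to 1000 UMIs, a step that removes differences in depth, 21.1% of 76 cells had a Gzma UMI (12.5 to 31.9%), against 0.144% of 694 low-Ccl5 cells and 0.500% of 1400 B cells.

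Gzmb, encoding granzyme B, had 42 UMIs in 17 cells, or 203 CPM (147 to 275), against 7.57 CPM (3.91 to 13.2) in low-Ccl5 cells. Its log2 ratio was 4.75 (3.80 to 5.81), and 4.16 in the screened set. Gzmk, encoding granzyme K, had 25 UMIs in 18 cells, or 121 CPM (78.3 to 179), against 1 UMI in the low-Ccl5 class, with a log2 ratio of 7.58 (4.97 to 12.94). Gzmk was also the cytotoxic gene that set the class apart from NK cells, where 3 UMIs gave 5.51 CPM, a log2 ratio of 4.46 (2.74 to 6.83). Outside these classes and NK cells it summed to 20 UMIs in 18706 cells.

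Nkg7, a granule membrane protein needed for degranulation, was the most widespread of the cytotoxic transcripts that differed. It was seen in 75 of 91 cells with at most 11 UMIs per cell, and its level was 1157 CPM (1015 to 1314) against 309 CPM (282 to 338), a log2 ratio of 1.90 (1.68 to 2.13). After thinning, 55.3% of cells had an Nkg7 UMI, against 25.2% of low-Ccl5 cells and 0.500% of B cells. Fasl, the death receptor ligand, was 87.1 CPM against 10.7 CPM (log2 ratio 3.02, 1.98 to 4.07), and Ctsw, the lysosomal protease cathepsin W, was 353 against 108 CPM (1.70, 1.29 to 2.11). Prf1, encoding perforin, was 62.9 CPM from 13 UMIs against 17.7 CPM, with a log2 ratio of 1.83 (0.76 to 2.83) that was 1.18 (-0.17 to 2.36) in the screened set. Srgn, the granule proteoglycan serglycin, differed little (log2 ratio -0.02, -0.26 to 0.21), and Cst7 was 72.6 against 41.6 CPM (0.80, -0.11 to 1.63).

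Genes of activation and memory were also higher, with 9 of 11 at the minimum at least 2-fold higher and none at least 2-fold lower. Ly6c2, a surface protein of memory CD8 T cells, was 683 CPM (575 to 805) in 60 cells against 116 CPM, a log2 ratio of 2.56 (2.23 to 2.88). Cxcr3, a chemokine receptor that guides T cells into inflamed tissue, was 96.8 CPM against 13.2 CPM (2.87, 1.91 to 3.82). Il2rb, the beta chain of the receptor for IL-2 and IL-15, was 237 against 64.3 CPM (1.88, 1.36 to 2.39), and Itgb1, an integrin chain, was 397 against 107 CPM (1.90, 1.50 to 2.29).

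The same list held the subunits of the IL-18 receptor, with Il18r1 at a log2 ratio of 1.70 (1.21 to 2.16) and Il18rap at 2.56 (1.64 to 3.46), the chemokine receptor Ccr2 (1.78, 0.86 to 2.64), and the integrin Itgal (1.51, 0.94 to 2.05). Il18rap was at 3.32 (2.19 to 4.48) in the screened set. Klrg1, a marker of terminal effector cells, stayed just under the minimum with 10 UMIs in 9 cells. Ly6a was the exception in sign. It was 165 CPM against 242 CPM (log2 ratio -0.56, -1.11 to -0.05), yet 1.40 (0.74 to 2.02) in the screened set, which left out low-Ccl5 cells with many UMIs of other cell types. For the summed list the log2 ratio was 1.56 (1.41 to 1.71), and 2.15 (1.97 to 2.32) in the screened set.

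**Figure D2:**
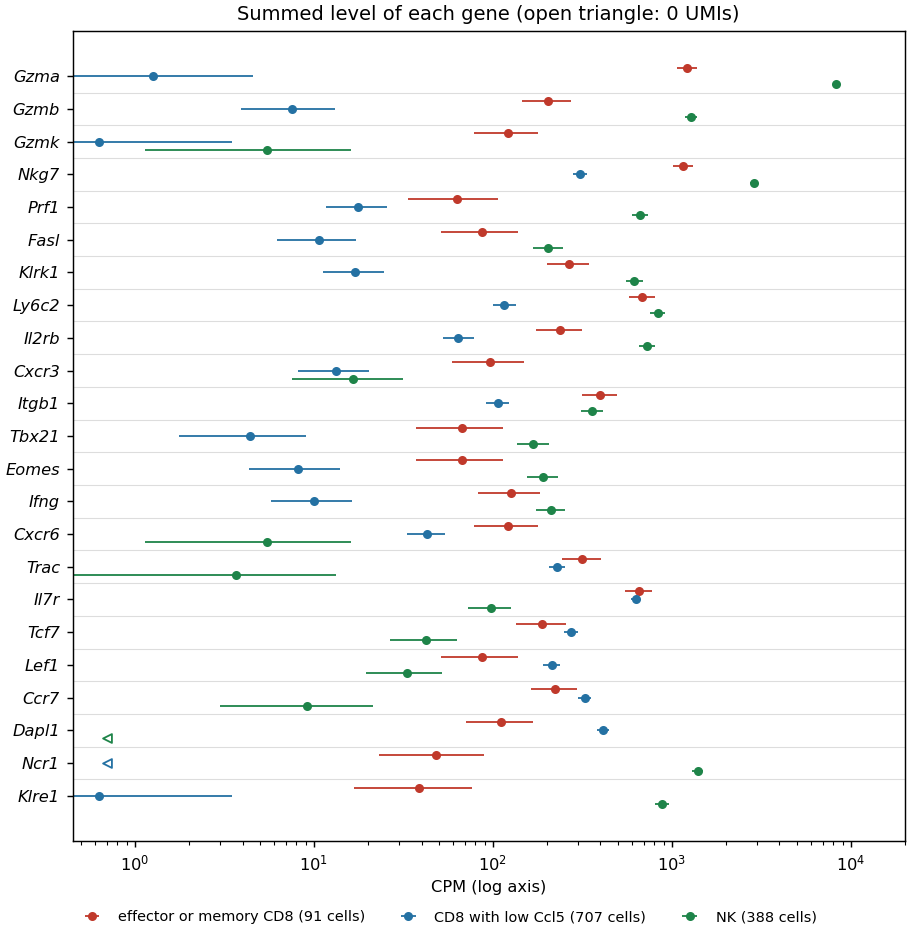
Summed level of 23 listed genes in CPM (log axis) in effector or memory CD8 T cells, low-Ccl5 CD8 T cells and NK cells, with exact 95% Poisson intervals and open triangles for 0 UMIs. Gzma, Gzmb and Nkg7 sat between the low-Ccl5 and NK levels, Gzmk was highest in effector or memory cells, and Ncr1 and Klre1 were at 1398 and 880 CPM in the NK cells they chose.

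Among transcription factors, 4 of 8 genes at the minimum were at least 2-fold higher. Tbx21, encoding T-bet, was 67.8 CPM from 14 UMIs in 13 cells against 4.42 CPM (log2 ratio 3.94, 2.54 to 5.49). Eomes was also 67.8 CPM, from 14 UMIs in 10 cells, against 8.20 CPM (3.05, 1.85 to 4.26). Zeb2 and Bhlhe40, factors of effector differentiation and cytokine production, had log2 ratios of 2.60 (1.86 to 3.33) and 1.82 (1.21 to 2.41), and Zeb2 was at 3.99 (2.95 to 5.12) in the screened set. Batf was lower (-1.24, -2.48 to -0.22) on 8 UMIs. Runx3 was 266 against 203 CPM (0.39, -0.05 to 0.81). Zfp683, encoding the residency factor Hobit, had 0 UMIs in the 91 cells, which allows up to 3 UMIs.

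Ifng, encoding interferon-gamma, had 26 UMIs in 17 cells, or 126 CPM (82.2 to 184), against 10.1 CPM (5.77 to 16.4), a log2 ratio of 3.64 (2.69 to 4.64). Ccl4, another chemokine, was 174 against 51.1 CPM (1.77, 1.16 to 2.35). Tnf went the other way on 7 UMIs (-1.09, -2.43 to 0.00), so that 2 of the 5 cytokine and chemokine genes at the minimum were at least 2-fold higher and 1 lower. In the screened set Tnf was at -0.63 (-1.99 to 0.47) and no longer past 2-fold. Il2 gave 3 UMIs and Csf2 none.

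Naive genes were lower as a list and unevenly so by gene. All 12 reached the minimum, 4 were at least 2-fold lower and none at least 2-fold higher, and the summed level was 2353 CPM (2148 to 2572) against 3590.2 CPM, a log2 ratio of -0.61 (-0.75 to -0.48). Igfbp4, encoding a secreted binding protein of insulin-like growth factors, had 1 UMI against 202 in the low-Ccl5 class (-4.72, -10.03 to -2.22). Dapl1 was 111 CPM in 13 cells against 414 CPM (-1.89, -2.56 to -1.30). Lef1, a transcription factor of naive T cells, was 87.1 against 214 CPM (-1.29, -2.07 to -0.61), and S1pr1, the receptor for exit from lymphoid tissue, was 126 against 254 CPM (-1.01, -1.64 to -0.44).

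Tcf7, encoding TCF-1, was 189 against 274 CPM (-0.54, -1.05 to -0.06). The homing receptor Ccr7 was 223 against 326 CPM (-0.55, -1.02 to -0.11), and -1.53 (-2.24 to -0.90) in the screened set. After thinning, 7.89% of the cells had a Ccr7 UMI, against 29.3% of low-Ccl5 cells. B cells, which use the same receptor, were at 32.8%. Il7r, the receptor for the survival cytokine IL-7, differed little, at 654 CPM (548 to 774) against 628 CPM (589 to 668), a log2 ratio of 0.06 (-0.21 to 0.32).

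Residency genes were at a summed log2 ratio of 0.94 (0.69 to 1.18), with 3 of 4 genes at the minimum at least 2-fold higher. These were Cxcr6, a chemokine receptor of tissue T cells (121 against 42.9 CPM, 1.50, 0.77 to 2.18), Rgs1 (1.43, 0.75 to 2.06) and the collagen-binding integrin Itga1 (2.13, 0.98 to 3.22). On 12 against 4 UMIs, Itga1 was at 4.52 (2.80 to 6.61) in the screened set. Cd69, which holds cells in tissue and also marks recent activation, was 416 against 271 CPM (0.62, 0.27 to 0.96). Itgae, encoding CD103, gave 8 UMIs in 4 cells.

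Inhibitory receptors gave few UMIs. The 11 genes gave 35 UMIs in 26 cells, with 1 UMI each of Pdcd1, Lag3, Tigit and Btla, 3 of Havcr2 and Entpd1, and 11 of Ctla4, which alone reached the minimum (53.3 against 45.4 CPM, log2 ratio 0.23, -0.84 to 1.15). A summed level of 169 CPM (118 to 236) against 112 CPM gave a log2 ratio of 0.60 (0.04 to 1.13), and 0.95 (0.33 to 1.52) in the screened set. B cells were at 154 CPM, a sum in which free RNA and their own transcripts were not told apart. At this depth a difference in single inhibitory receptors was not detectable. Tox, a factor tied to exhaustion, was 48.4 against 59.9 CPM (-0.31, -1.41 to 0.63).

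The T cell receptor and its signaling genes stayed within 2-fold, with 0 of 11 genes past it in either direction and a summed log2 ratio of 0.16 (0.04 to 0.29). Activation genes had Nr4a2 at 1.37 (0.80 to 1.91) and Nr4a3 at 1.11 (0.36 to 1.81) as 2 of 5 past 2-fold, with Nr4a3 at 0.85 in the screened set. Immediate-early and heat shock genes were lower as a list (-0.73, -0.87 to -0.60, and -0.41 in the screened set), with Fos, Jun, Egr1 and Zfp36 at least 2-fold lower among 9 at the minimum. In the screened set Fos was -0.51 and Egr1 0.16, while Jun (-1.52) and Zfp36 (-1.62) stayed past 2-fold. Hspa1b, the 1 gene of the list past 2-fold upwards, owed 13 of 19 UMIs to the cell with dendritic cell markers.

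Interferon-stimulated genes had Isg15, an antiviral ubiquitin-like protein, as 1 of 5 past 2-fold (77.5 against 27.7 CPM, 1.48, 0.56 to 2.33), with 9 of its 16 UMIs in 1 cell. Glycolysis genes were level, with none of 6 past 2-fold and a summed log2 ratio of 0.05 (-0.13 to 0.23). Innate-like and gamma-delta genes gave 13 UMIs, 7 of them Il17a in 1 cell.

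Among receptors shared with NK cells, 2 of 5 at the minimum were at least 2-fold higher than in low-Ccl5 cells. Klrk1, encoding the activating receptor NKG2D, was 266 CPM (201 to 347) in 31 cells against 17.0 CPM, a log2 ratio of 3.97 (3.28 to 4.69). Hcst, encoding its adaptor DAP10, was 1229.8 CPM in 80 cells against 577 CPM (1.09, 0.89 to 1.30), the ratio being 0.97 in the screened set. Klrd1, encoding CD94, was 281 against 192 CPM (0.55, 0.11 to 0.95), and its partner Klrc2 gave 10 UMIs in 8 cells against 1.

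Over all genes the 10 with the highest ratio to the low-Ccl5 class (ranked with a pseudocount of 10 CPM) were Gzma, Gzmk, Gzmb, Klrk1, Slamf7, Fscn1, Ifng, Ly6c2, Tbx21 and Pogk. Slamf7, a receptor of activated lymphocytes, was 96.8 against 3.15 CPM (4.94, 3.48 to 6.71) in 17 cells, and Pogk was 53.3 against 3.15 CPM. Their log2 ratios in the screened set were 5.60, on 19 against 3 UMIs, and 5.10, on 9 against 2 UMIs. Fscn1 rested on the 1 cell with dendritic cell markers. The 10 with the lowest ratio were S100a8, Retnlg, Ly6c1, Gpx3, Sftpa1, Sftpc, S100a9, Scd1, Lrg1 and Lcn2, which include genes of neutrophils and of alveolar epithelium. In the screened set Sftpc moved from -4.11 to 0.23 and S100a9 from -3.87 to 1.16, and 69 genes in place of 125 were at least 2-fold lower. Sftpc and S100a9 are on the marker lists used for the screening, so a shift in them was built in.

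**Figure D3:**
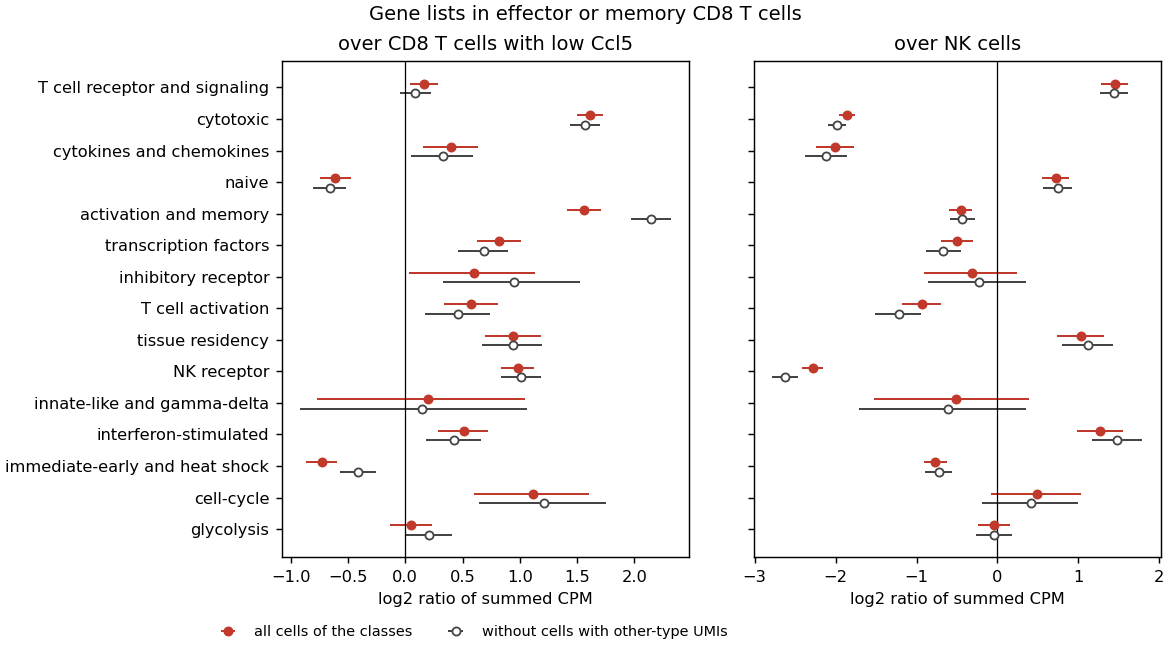
Log2 ratio of summed CPM for 15 gene lists, effector or memory CD8 T cells over low-Ccl5 CD8 T cells (left) and over NK cells (right), with 95% intervals. Filled points use all cells and open points the screened set. The cytotoxic list was at 1.61 on the left and -1.86 on the right, and the activation and memory list moved most with the screening, from 1.56 to 2.15.

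Against NK cells, effector or memory CD8 T cells carried less of the cytotoxic list (4139.5 against 15005.4 CPM, log2 ratio -1.86, -1.96 to -1.76). Of 9 genes at the minimum, 5 were at least 2-fold lower and Gzmk alone was higher, against 433 genes lower (14.8%) and 146 higher (5.01%) of all 2917. Gzma was 8324 CPM in NK cells (log2 ratio -2.77, -2.96 to -2.59) and was present in 86.7% of thinned NK cells. Gzmb was 1287 CPM (-2.66, -3.15 to -2.21), Prf1 663 CPM (-3.40, -4.32 to -2.60), and Nkg7 2896 CPM (-1.32, -1.53 to -1.13). Ctsw stayed within the interval, at 353 against 417 CPM (-0.24, -0.64 to 0.15). With ribosomal protein and mitochondrial UMIs left out, the median over the 2824 remaining genes moved by 0.26 and the cytotoxic ratio was -1.60. The calls were 401 higher and 428 lower, again with the minimum applied to the rescaled levels and so over more genes.

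The NK cells were chosen by Ncr1, Klrb1c and Klre1, so these 3 genes are no finding. Of the other 13 genes on the NK receptor list, 12 reached the minimum, 10 were at least 2-fold lower in effector or memory CD8 T cells and none higher, with a summed log2 ratio of -2.01 (-2.14 to -1.87) and -2.29 in the screened set. The screened set left out CD8 T cells by UMIs of Klrb1f, Klra4, Klra7, Klra8 and Klra9, among others. As these genes are on the list, lower screened ratios of the list and of Klra4 were built in and are no finding. Tyrobp and Fcer1g, signaling adaptors of NK and myeloid cells, were 184 and 242 CPM against 3104 and 2560.0 CPM. Their log2 ratios of -4.08 and -3.40 were -7.46 and -6.80 in the screened set, where 3 of 38 Tyrobp UMIs and 4 of 50 Fcer1g UMIs remained. Klra4 (-5.01, -7.29 to -3.44) and Klrb1f (0 UMIs against 180 CPM, upper end of the log2 interval -3.31) had little or no signal, and Klra4 was at -6.43 (-11.74 to -3.94) in the screened set, on 1 UMI.

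T cell genes went the other way, with 8 of 12 genes of the T cell receptor list at least 2-fold higher than in NK cells. The NK cells were chosen for having no Cd3 UMI, so this contrast was in part built in. Trac was 315 against 3.67 CPM (6.42, 4.51 to 9.50), whereas Trbc1, whose germline transcripts are known in NK cells, was 397 against 226 CPM (0.81, 0.39 to 1.23). Naive genes were higher in 6 of 10, among them Il7r (2.75, 2.28 to 3.23), Tcf7 (2.16, 1.38 to 2.97), Ccr7 (4.60, 3.27 to 6.29) and Dapl1 (23 UMIs against 0, lower end of the log2 interval 3.92). Ccr7 was at 3.61 (2.17 to 5.38) in the screened set. Cxcr3 (2.55, 1.35 to 3.87) and Cxcr6 (4.46, 2.74 to 6.83) were both higher than in NK cells, at levels of 97.3 CPM for Il7r, 16.5 CPM for Cxcr3 and 5.51 CPM for Cxcr6 in the NK class. Tbx21, Eomes and Ifng were lower by log2 ratios of -1.32 (-2.24 to -0.50), -1.49 (-2.41 to -0.68) and -0.75 (-1.42 to -0.12).

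Relative to all other 18706 kept cells, 320 of 3168 genes (10.1%) were at least 2-fold higher and 790 (24.9%) at least 2-fold lower. Gzmk had the log2 ratio 8.40, Eomes 5.42, Nkg7 5.12, Gzma 4.86 and Tbx21 4.82. Zeb2 and Bhlhe40, which were higher than in low-Ccl5 cells, were at -0.30 and -0.13 here.

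The cells were also grouped by Ccl5 UMIs, the gene that chose them, so the values are a description. Cytotoxic genes summed to 1548 CPM (86 UMIs) in the 22 cells with 2 to 5 Ccl5 UMIs, 3703 CPM in the 34 cells with 6 to 20 and 6589 CPM in the 35 cells with 21 or more, against 1359 CPM in the 691 cells with none. Naive genes were at 2683, 2733 and 1692 CPM in the same order. Gzma had 0 UMIs in the cells with 2 to 5 Ccl5 UMIs and 53 and 199 UMIs in the next 2 groups, and Nkg7 was at 396, 1213 and 1678 CPM. Ly6c2 already stood at 558 CPM in the lowest group, against 117 CPM in the cells with no Ccl5. Residency genes were at 936, 792 and 825 CPM. The median depth was 2562, 2114.5 and 1362 UMIs per cell from the lowest to the highest group, and its part in these values was not tested.

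**Figure D4:**
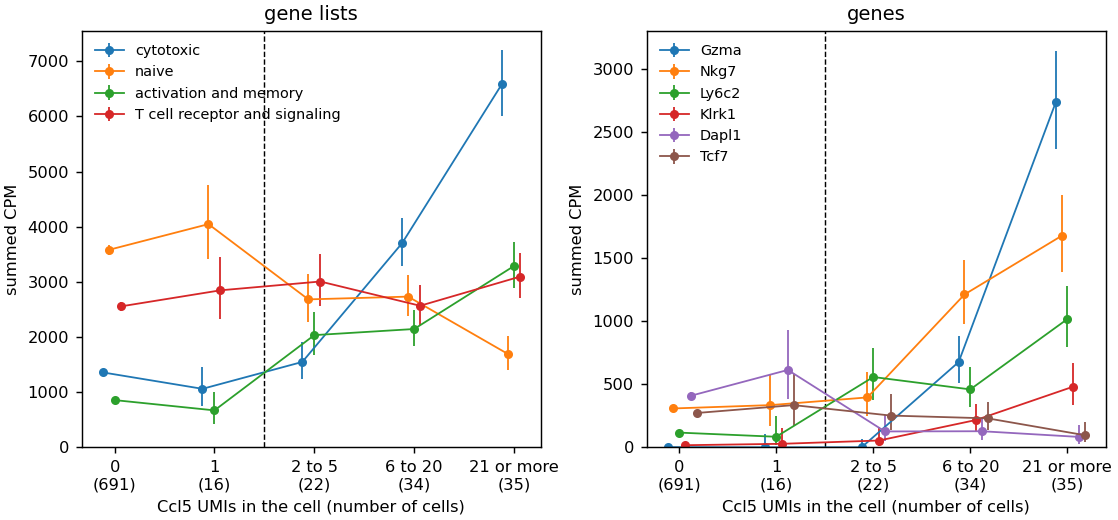
Summed CPM, with exact 95% intervals, of 4 gene lists (left) and 6 genes (right) in CD8 T cells grouped by Ccl5 UMIs per cell, with the number of cells in parentheses. The dashed line is the threshold of the class. The cytotoxic list was at 1548 CPM just right of the line and at 6589 CPM in the last group, whereas the naive list was at 2683 and 1692 CPM.

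Granzymes were spread unevenly over the cells. Any of Gzma, Gzmb and Gzmk was detected in 37 of the 91 cells. Gzmb accompanied Gzma, with 15 of the 17 Gzmb-positive cells also positive for Gzma. Of the 18 cells with Gzmk, 8 had Gzma and 10 did not.

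The 76 cells with at least 1000 UMIs were divided by Gzma after thinning, and all UMIs were then summed over the 16 positive and 60 negative cells. Positive means a Gzma UMI left after thinning, so some negative cells held Gzma among all their UMIs. Median depth was similar, at 2378 and 2180 UMIs, while median Ccl5 was 52 and 9 UMIs per cell. Il7r was 67.3 CPM from 3 UMIs in the Gzma-positive cells and 878 CPM from 131 UMIs, in 42 cells, in the negative cells, a log2 ratio of -3.71 (-6.00 to -2.13). Dapl1 had 0 and 23 UMIs. Tcf7 had 3 and 35 UMIs (-1.80, -4.15 to -0.14), and the naive list was at -1.03 (-1.45 to -0.64).

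In the other direction, the remaining 9 cytotoxic genes were higher in Gzma-positive cells (4309.7 against 2193 CPM, log2 ratio 0.97, 0.71 to 1.24), with Gzmb at 36 against 2 UMIs. Lgals1, encoding galectin-1 and named here after its values were seen, was 5095 CPM against 972 CPM (2.39, 2.08 to 2.70). It was detected in 16 of 16 positive and 37 of 60 negative cells, and its ratio was 2.08 without the cell that held 70 of the 227 UMIs. The inhibitory receptor list had a wide interval (0.04, -1.31 to 1.23) on 8 and 26 UMIs. In the screened set, with 12 and 57 cells, Il7r was at -4.78 (-10.09 to -2.27) and Lgals1 at 2.90.

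**Figure D5:**
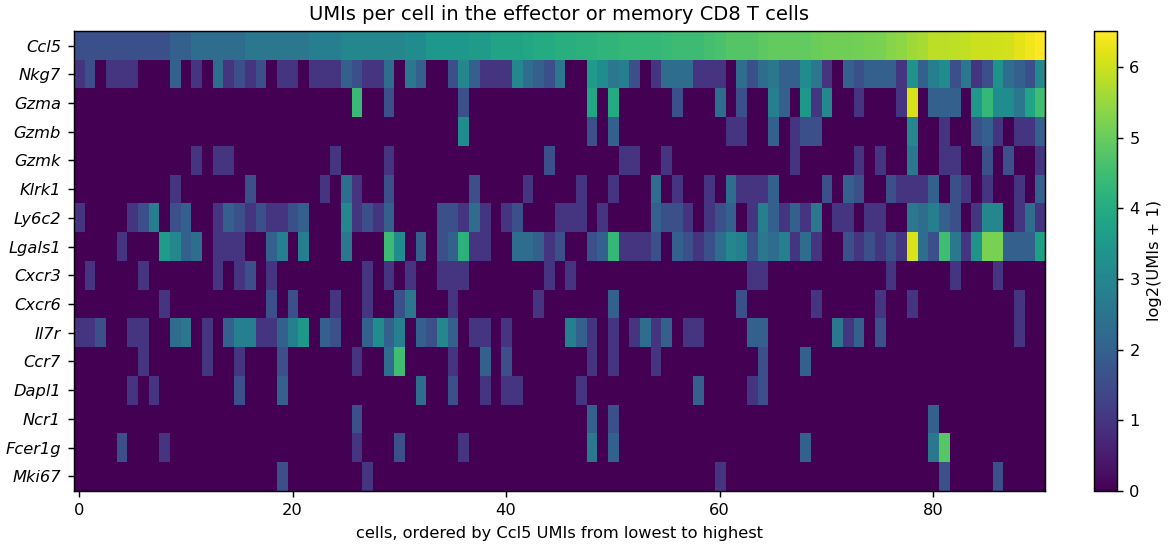
UMIs per cell, as log2(UMIs + 1), of 16 genes in the 91 effector or memory CD8 T cells, 1 column per cell in order of Ccl5. Gzma and Gzmb gather towards the right, Il7r, Ccr7 and Dapl1 towards the left and middle, and Ncr1 and most Fcer1g UMIs lie in a few columns.

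Few cells held transcripts of several cell-cycle genes. UMIs of at least 2 of 10 cell-cycle genes were present in 2 of 76 thinned cells, or 2.63% (0.32 to 9.18%), against 0.576% of low-Ccl5 CD8 T cells, 1.05% of NK cells and 0.786% of B cells, and in 4 of 91 cells without thinning. The intervals of these shares overlapped. As a sum, the list was at 213 CPM (155 to 286) against 98.4 CPM in low-Ccl5 cells, a log2 ratio of 1.11 (0.60 to 1.61), and 1.21 (0.64 to 1.75) in the screened set. It rested on 44 UMIs in 10 cells, 28 of them in 4 of the 16 Gzma-positive cells. Pclaf, a replication factor, was the 1 gene of the list at the minimum, with 13 UMIs in 5 cells and a log2 ratio of 1.94 (0.86 to 2.95).

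The alleles of the mouse model left few reads in these cells. Stk11 gave 4 UMIs, or 19.4 CPM (5.28 to 49.6), against 19.6 CPM in low-Ccl5 cells and 27.5 CPM in NK cells, which does not resolve a difference. TdTomato was 126 CPM (82.2 to 184), below the 235 CPM of low-Ccl5 CD8 T cells, the 256 CPM of B cells and the 1169 CPM of all other cells. After thinning it was detected in 9.21% of cells, against 8.86% of B cells. Whether these UMIs came from free RNA, from other cells in the droplet or from the cells themselves was not tested. GFP, which the trapped Lkb1 allele expresses, had 0 UMIs in the 91 cells.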

How the data were processed

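The authors sorted viable (DAPI-negative) cells, prepared 10x Chromium 3′ v3 libraries and deposited 1 matrix of UMI counts per gene and cell. Its header names Cell Ranger 3.0.2, and the reference was mm10 extended by GFP and TdTomato. The sources used here do not say if libraries were brought to equal depth before joining. Cells carried only a column number, columns of other samples numbered 0, and 459 cells were removed by the minimum of 200 genes or the mitochondrial limit of 13.4%.

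The classes, lists and rules were chosen with earlier results of these data known, so no list is independent support. UMIs were summed per class and scaled to CPM, without averaging over cells. Intervals for CPM are exact Poisson, for ratios exact conditional and for shares exact Clopper-Pearson, at 95%. A gene was compared when it reached 50 CPM in either class and was not among the 12 genes of the class criteria, and a difference was counted past 2-fold, with no test. A class with 0 UMIs was set to 3 UMIs when a fold was counted. Shares were taken after thinning to 1000 UMIs (seed 1), which left 76 effector or memory, 694 low-Ccl5, 285 NK and 1400 B cells, and unthinned cell numbers are given beside them. Genes named are those of 16 lists (168 genes, all found) that reached the minimum, and the 10 highest and 10 lowest against each comparison class. 2 motifs were searched upstream of 12 genes, of which 11 had an entry. Doublets were kept, and their removal was an alternative. With an expected rate of 6%, Scrublet in scanpy 1.11.5 marked 210 (1.03%) of 20299 cells, although it does not model pooled libraries. Ratios were tested on simulated data of independent Poisson counts. Such counts lack the uneven spread of UMIs over cells, so the intervals were not tested for that spread. Calculations used Python 3.11.15, numpy 2.4.6, scipy 1.17.1 and pandas 2.3.3, with gene coordinates from GENCODE on mm10. Alternatives changed the gene minimum, the mitochondrial limit, an upper limit on genes, the Ccl5 threshold, removal of cells with TdTomato or C1q UMIs or with gamma-delta constant UMIs, doublets, the NK criterion, the scaling, the CPM minimum and the thinning. Some items, among them 1 allele shared by all mice, single genes of the lists and a division of the cells based on one of them, are not reported here. 2 alternatives on UMIs of other cell types were chosen after seeing the data.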

Additional observations from a re-analysis of the deposited data

How the results depend on the processing

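Among the values that answer a comparison, no ratio of a summed list changed sign under any alternative. Counts of genes and shares of cells cannot change sign. Without ribosomal protein and mitochondrial UMIs in the totals, calls against low-Ccl5 cells were 280 higher and 379 lower, in place of 219 and 125. The alternatives set out first gave 141 ratios, counts and shares. Of these, 109 stayed within their counting interval, or near the main number for counts of genes. The other 32 moved by more, for which the cause was not tested beyond what is said here. Under the 2 alternatives chosen after seeing the data, 21 of 26 stayed and 5 moved. The ratios of the summed lists are log2 ratios of effector or memory CD8 T cells, given first over low-Ccl5 CD8 T cells and then over NK cells.

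With ribosomal protein and mitochondrial UMIs left out of the totals, the cytotoxic list was 1.48 and -1.60, the naive list -0.75 and the NK receptor list -2.02 over NK cells, with 379 genes lower than in low-Ccl5 cells and 401 higher than in NK cells. Both counts applied the CPM minimum to the rescaled levels, so they cover another set of genes than the main counts. With the mean of each cell's CPM, the cytotoxic list was 1.84, the naive list -0.78 and the activation and memory list 2.19, with 396 genes higher than in low-Ccl5 cells. A Ccl5 threshold of 1 gave 1.44 and -2.03 for the cytotoxic list, -0.46 for the naive list, 1.39 for the activation and memory list, -2.43 for the NK receptor list and 136 genes higher. A threshold of 5 gave 1.81 and -1.66 for the cytotoxic and -2.14 for the NK receptor list. An NK criterion of 1 UMI gave -1.70 and -2.12 for these lists over NK cells. Without cells that had TdTomato or C1q UMIs the class was 0.694% of kept cells and the activation and memory list 1.88, and it was also 1.88 without cells above the 98th percentile of genes. A minimum of 20 CPM gave 597 genes higher and 456 lower than in low-Ccl5 cells and 422 and 1121 against NK cells, and a minimum of 100 CPM gave 87 and 50, and 56 and 166, because other numbers of genes were compared. Without the cells with many UMIs of other cell types, the activation and memory list was 2.15, the cytotoxic list -1.98 and the NK receptor list -2.62 over NK cells, and 69 genes were lower than in low-Ccl5 cells. Without the cells with NK gene UMIs alone, the NK receptor list was -2.48. Both removals used genes of the NK receptor list, so its lower ratios there were built in.

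The division by Pdcd1 was not run, because 1 cell was positive.

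Among named genes, Ly6a over low-Ccl5 cells reversed to 0.87 with the mean of each cell's CPM, 1.19 without cells above the 98th percentile of genes, 0.66 without TdTomato or C1q cells and 1.40 in the screened set. Klrg1 over NK cells reversed to 0.049 with the mean of each cell's CPM, and Scd1 to 0.35 without TdTomato or C1q cells. In the screened set Egr1 (0.16), Fcer1g (-0.74), Hspa1b (-0.15), S100a9 (1.16) and Sftpc (0.23) over low-Ccl5 cells reversed. Of these, S100a9 and Sftpc are on the marker lists that chose the cells left out. Genes with 0 UMIs in effector or memory CD8 T cells were not counted as reversals. Among them, Retnlg and Ly6c1 over low-Ccl5 cells were at -4.07 and -3.39, and at 1.93 and 0.71 in the screened set. Those values rest on 0 set to 3 UMIs, and Retnlg is also on a marker list.

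No paired analysis was possible because the matrix columns carry no mouse or replicate number, and leaving out each replicate could not be run for the same reason. Genes with few UMIs in 91 cells, such as the inhibitory receptors, are limited by depth.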
